A study of Homo sapiens with 6 samples.

Results

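The cytochrome P450 genes were described in SW1990, a line of human pancreatic cancer cells, across 6 RNA-seq libraries. The family was taken as every gene of the deposited expression table whose symbol is CYP followed by a family number, a subfamily letter and a member number, without CYP51A1, and it held 54 of the 19077 genes. The 6 libraries comprised 1 of a gemcitabine-resistant derivative kept in DMEM/F-12 with 10% fetal bovine serum and 100 nM gemcitabine, 2 of TRA-1-81 positive and 2 of TRA-1-81 negative cells of the parental line separated by flow cytometry, and 1 of the unsorted parental line in the same medium without the drug. TRA-1-81 is a glycan epitope known from pluripotent stem cells, and the 2 sorted libraries of each fraction carry the numbers 0603 and 0610, whose meaning the labels do not give. Neither do the labels say how the resistant derivative was made or whether it is a single clone, and it differs from the parental libraries both in its history and in the drug present at harvest. The resistant derivative and the unsorted parental line had 1 library each, so no difference between them has a replicate check or a p-value. All levels are FPKM (sequenced fragments relative to transcript length and to the library's mapped total).

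P450s are haem enzymes that insert an oxygen atom into their substrates, with electrons passed on by POR in the endoplasmic reticulum or by ferredoxin in mitochondria. Families 1 to 3 mainly oxidise drugs and other foreign compounds and are best known from the liver and gut, where nuclear receptors (PXR, CAR) and the aryl hydrocarbon receptor (AhR) switch many of them on. Other families handle the body's own fatty acids, bile acids, steroid hormones, vitamin D and retinoic acid, and several of these enzymes are induced by the ligand they destroy. Gemcitabine itself is a nucleoside analogue that is inactivated mainly by deamination, not by P450s.

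At the level of transcript, 20 of the 54 members reached an FPKM of 1 in at least 1 library, which is 37.0%, against 64.2% of all genes in the table. Of these, 7 were at or above 1 in all 6 libraries and 3 reached 5 (CYP2S1, CYP24A1 and CYP3A5). The number of members at or above 1 was 18 in the resistant library, 13 and 14 in the positive libraries, 13 and 12 in the negative libraries, and 9 in the unsorted parental library. The summed FPKM of the 54 members was 129 in the resistant library, 46.6 and 48.6 in the positive libraries, 44.5 and 44.6 in the negative libraries, and 47.0 in the unsorted parental library. CYP2S1 and CYP24A1 together made up 61.4% of that sum in the resistant library, 36.6% to 39.4% in the sorted libraries and 54.6% in the unsorted parental library. The resistant library thus held more P450 transcript than any other library, and a pair of genes made up most of it.

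The libraries were alike in breadth, with 11164 to 11729 genes at 1 FPKM or more. From the smallest values in the table, 1 fragment on a 1 kb transcript was worth an FPKM of about 0.0334 in the resistant library, 0.0250 to 0.0279 in the sorted libraries and 0.0364 in the unsorted parental library. These are rough, because Cufflinks shares fragments between transcripts, and a value of 0 may be a failed estimate. All 5 markers of pancreatic ductal epithelium were at an FPKM of 162 or more in every library. The hepatocyte marker ALB was at 0 in all 6 libraries, and the 6 hepatocyte markers together summed to 3.17 in the resistant library, against 4.80 to 7.62 in the sorted and 6.42 in the unsorted parental libraries. None of 4 markers of steroidogenic cells reached 1. Of 5 leukocyte markers, LCP1 alone passed 1, with 150 in the resistant library and 3.31 to 5.77 in the others, while PTPRC did not exceed 0.0205. The 5 fibroblast markers summed to 20.2 in the resistant library, against 4.21 to 5.07 in the sorted and 2.84 in the unsorted parental libraries, 2 of them or fewer at or above 1 in each, and DCN was at 0 in all but the unsorted parental library. The part of these markers in the P450 results was not tested. In bulk RNA, fewer cells with a transcript and less transcript per cell cannot be told apart.

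Promoter sequences are shown for the P450 genes that were at least 2-fold higher in the resistant than in the unsorted parental library, since these carry the main difference described below. There were 6 such genes, and the RefSeq promoter table (GRCh38.p14) had an entry for CYP3A5, CYP2B6, CYP2S1 and CYP26B1. Each line gives the 250 bases before the annotated start, 5′ to 3′ on the strand of the gene. Capitals mark matches on either strand to 3 motifs: AGGTCA and AGTTCA, half-sites of nuclear receptors, and TGACNNNGC, the core of the antioxidant response element bound by NRF2. A further motif, GCGTG, the core bound by AhR with its partner ARNT, was also searched and is in none of the 4 windows.
CYP3A5, chr7:99679997-99680246, minus strand: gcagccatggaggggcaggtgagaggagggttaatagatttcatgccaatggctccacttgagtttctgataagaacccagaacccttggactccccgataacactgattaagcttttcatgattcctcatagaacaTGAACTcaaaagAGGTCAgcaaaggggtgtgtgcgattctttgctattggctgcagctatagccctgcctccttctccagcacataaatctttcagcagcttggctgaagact
CYP2B6, chr19:40991032-40991281, plus strand: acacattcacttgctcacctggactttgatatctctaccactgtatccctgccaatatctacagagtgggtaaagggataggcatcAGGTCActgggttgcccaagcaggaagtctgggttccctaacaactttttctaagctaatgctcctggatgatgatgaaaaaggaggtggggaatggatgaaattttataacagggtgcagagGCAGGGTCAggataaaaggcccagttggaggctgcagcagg
CYP2S1, chr19:41192969-41193218, plus strand: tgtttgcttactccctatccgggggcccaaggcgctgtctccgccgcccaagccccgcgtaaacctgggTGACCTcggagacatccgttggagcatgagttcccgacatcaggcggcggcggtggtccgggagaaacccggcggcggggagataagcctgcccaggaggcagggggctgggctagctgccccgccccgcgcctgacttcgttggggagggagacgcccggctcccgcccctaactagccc
CYP26B1, chr2:72147863-72148112, minus strand: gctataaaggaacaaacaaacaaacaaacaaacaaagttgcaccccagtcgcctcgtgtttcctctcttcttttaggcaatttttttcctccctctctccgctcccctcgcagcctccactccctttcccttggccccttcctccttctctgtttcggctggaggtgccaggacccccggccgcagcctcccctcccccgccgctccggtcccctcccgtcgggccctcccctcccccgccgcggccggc

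In CYP3A5, AGTTCA on the reverse strand at bases -113 to -108 and AGGTCA on the forward strand at -101 to -96 point away from each other with 6 bases between them. Such an everted pair is the arrangement that PXR with RXR is known to bind in CYP3A promoters. Any pair of these half-sites in this arrangement was found in 6 of the 27305 promoters of the table (0.02197%), 2 of which were those of CYP3A4 and CYP3A5. The CYP2B6 window held AGGTCA at -164 to -159 and TGACNNNGC on the reverse strand at -41 to -33. CYP2S1 had AGGTCA on the reverse strand at -181 to -176, and the window of CYP26B1, which held 16 CpG dinucleotides, matched none of the 4 motifs. Singly, the motifs are common: AGGTCA was in 12.14% of all promoters, AGTTCA in 8.91%, TGACNNNGC in 11.03% and GCGTG in 31.91%. Among the 38 members with a promoter entry, they were in 11, 4, 4 and 8. A match is a description of letters and does not show binding.

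The enzymes of families 1 to 3 numbered 21, and 6 of them reached an FPKM of 1. CYP2S1, an epithelial enzyme of airway and gut that is inducible through AhR (chr19:41699115-41713444, hg19), was the most abundant P450 in every library. Its FPKM was 50.5 in the resistant library, 12.2 and 14.2 in the positive libraries, 13.0 and 13.8 in the negative libraries, and 15.1 in the unsorted parental library. The 5 parental-line libraries lay within 12.2 to 15.1, and the resistant library was more than 3 times the highest of them.

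CYP3A5 (chr7:99245813-99277621, hg19) oxidises a wide range of drugs, taxanes among them, and is the member of its subfamily found most widely outside the liver. Its level was 5.92 in the resistant library, 0.312 and 0.684 in the positive libraries, 0.274 and 0.506 in the negative libraries, and 0.410 in the unsorted parental library. CYP2B6 (chr19:41497204-41524301, hg19), a CAR-inducible liver enzyme that activates cyclophosphamide, was at 3.43 in the resistant library, 0.256 and 0.208 in the positive libraries, 0.0690 and 0.201 in the negative libraries, and 0.112 in the unsorted parental library. For both genes the resistant library stood alone above 1, with 305 and 315 fragments by the rough depth, against 19 and 9 in the unsorted parental library. The FPKM ratio of resistant to unsorted parental cells was 14.4 for CYP3A5 and 30.6 for CYP2B6, and the second rests on the 9 parental fragments.

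The transcript of CYP3A5 is 88.23% identical to that of CYP3A4 over 1725 aligned bases, and fragments could be assigned to the wrong copy. CYP3A4 itself, the main drug-metabolising P450 of the liver, was at 0.0115 in the resistant library and was 0.0115 or less in all 6. CYP3A7 did not exceed 0.0507, although its row lies wholly within that of the readthrough CYP3A7-CYP3AP1, and CYP3A43 was listed at 0 throughout. Nearly all of the CYP3A signal of the resistant library was thus assigned to CYP3A5.

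CYP1A1, the AhR-inducible enzyme that oxidises polycyclic aromatic hydrocarbons, was at 1.47 in the resistant library, 0.504 and 0.465 in the positive libraries, 0.630 and 0.613 in the negative libraries, and 1.81 in the unsorted parental library. The resistant and unsorted parental libraries were therefore both above the 4 sorted ones. CYP2J2, an epoxygenase of arachidonic acid, was at 1.23 in the resistant library, 0.367 and 0.180 in the positive libraries, 0.264 and 0.171 in the negative libraries, and 0.334 in the unsorted parental library. CYP2W1, known from fetal gut and colon tumours, was at 0.496 in the resistant library, 2.47 and 2.17 in the positive libraries, 2.58 and 2.09 in the negative libraries, and 0.627 in the unsorted parental library. It thus ran the other way from CYP1A1, with the sorted libraries high and both unsorted cultures low.

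The remaining members of families 1 to 3 stayed under 1. CYP1B1 ranged from 0.266 to 0.830, CYP2D6 from 0.0844 to 0.754, CYP1A2 from 0.182 to 0.439, CYP2A13 from 0.0137 to 0.278 and CYP2F1 from 0.0445 to 0.181. CYP2A6, CYP2A7, CYP2C8, CYP2C18, CYP2E1, CYP3A4 and CYP3A7 did not exceed 0.0507, and CYP2C19 and CYP3A43 were listed at 0 in all 6 libraries. For scale, 3 fragments on a 2 kb transcript would give an FPKM of about 0.050 in the resistant library, 0.0374 to 0.0418 in the sorted libraries and 0.0547 in the unsorted parental library. Most of the liver enzymes of the CYP2A and CYP2C subfamilies were therefore at or near what a few fragments give.

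**Figure D1:**
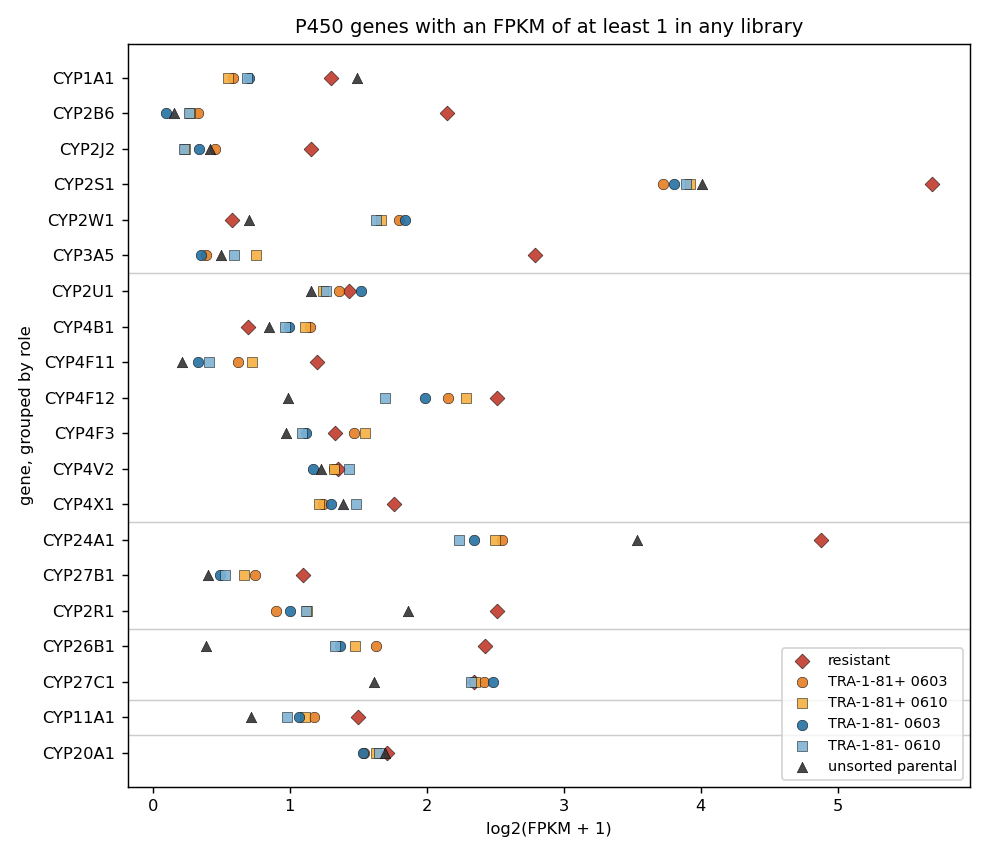
Level of each of the 20 P450 genes that reached an FPKM of 1, as log2(FPKM + 1) on the horizontal axis, with 1 symbol per library and the genes grouped by role. The resistant library (diamonds) is far to the right of the other 5 for CYP2S1, CYP24A1, CYP3A5 and CYP2B6, and CYP2W1 and CYP4B1 are the genes where it is the lowest.

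Among the 13 enzymes of fatty acids and eicosanoids, 7 reached an FPKM of 1. CYP4F12 (chr19:15783828-15807984, hg19), which hydroxylates fatty acids and some antihistamines, was at 4.70 in the resistant library, 3.46 and 3.87 in the positive libraries, 2.95 and 2.23 in the negative libraries, and 0.984 in the unsorted parental library. CYP4F3, the enzyme that inactivates leukotriene B4, was at 1.52 in the resistant library, 1.77 and 1.93 in the positive libraries, 1.17 and 1.13 in the negative libraries, and 0.964 in the unsorted parental library. CYP4F11, which hydroxylates long-chain fatty acids and vitamin K, was at 1.29 in the resistant library, 0.536 and 0.656 in the positive libraries, 0.260 and 0.330 in the negative libraries, and 0.161 in the unsorted parental library. All 3 of these chromosome 19 neighbours were lowest in the unsorted parental library and higher in both positive than in both negative libraries. Of all genes tested between the fractions, 18.6% were likewise higher in both positive than in both negative libraries.

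The CYP4F genes resemble each other closely. CYP4F3 is 91.61% identical to CYP4F2 over 2359 bases, and CYP4F11 is 85.77% identical to CYP4F12 over 1666 bases, so their values are not fully independent of how fragments were shared. CYP4F2 did not exceed 0.0487 in any library, CYP4F22 did not exceed 0.0135, and CYP4F8 was listed at 0.

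The other enzymes of this class varied less. CYP2U1, which hydroxylates long-chain fatty acids, ranged from 1.23 in the unsorted parental library to 1.87 in the negative library 0603, with 1.69 in the resistant library. CYP4V2, a fatty acid hydroxylase whose loss causes a crystalline retinal dystrophy, ranged from 1.24 to 1.70 in the sorted libraries, with 1.55 in the resistant and 1.34 in the unsorted parental library. CYP4X1, known mainly from brain, was at 2.38 in the resistant library, 1.36 and 1.32 in the positive libraries, 1.47 and 1.8 in the negative libraries, and 1.62 in the unsorted parental library. The resistant library was thus the highest for CYP4X1 and lay inside the range of the others for CYP2U1 and CYP4V2. CYP4B1, a lung P450 that activates plant toxins in rabbits, was at 0.621 in the resistant library, 1.22 and 1.16 in the positive libraries, 0.991 and 0.950 in the negative libraries, and 0.799 in the unsorted parental library. CYP4A11 and CYP4Z1 did not exceed 0.115, and CYP4A22 was listed at 0.

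All 3 enzymes of vitamin D reached an FPKM of 1, and the resistant library was the highest for each. CYP2R1 (chr11:14899556-14913751, hg19) makes the circulating form of vitamin D and was at 4.71 in the resistant library, 0.869 and 1.18 in the positive libraries, 1.0 and 1.17 in the negative libraries, and 2.63 in the unsorted parental library. CYP27B1 (chr12:58156117-58160976, hg19) makes the active hormone calcitriol and was at 1.13 in the resistant library, 0.675 and 0.585 in the positive libraries, 0.403 and 0.444 in the negative libraries, and 0.320 in the unsorted parental library. CYP24A1 (chr20:52769988-52790516, hg19) breaks calcitriol down and is itself a target of the vitamin D receptor. Its level was 28.4 in the resistant library, 4.84 and 4.64 in the positive libraries, 4.07 and 3.71 in the negative libraries, and 10.6 in the unsorted parental library. CYP2R1 and CYP24A1 therefore shared an order, with the resistant library on top, the unsorted parental library next and the 4 sorted libraries lowest, while CYP27B1 was lowest in the unsorted parental library. The receptor VDR varied little, at 16.3 in the resistant library, 13.9 and 12.8 in the positive libraries, 14.5 and 13.3 in the negative libraries, and 13.5 in the unsorted parental library.

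Of the 4 enzymes of retinoids, 2 reached an FPKM of 1. CYP26B1 (chr2:72356367-72374963, hg19), which clears retinoic acid, was at 4.36 in the resistant library, 2.1 and 1.79 in the positive libraries, 1.58 and 1.51 in the negative libraries, and 0.312 in the unsorted parental library. Both positive libraries lay above both negative ones, as for 18.6% of all genes tested between the fractions, and the other groups have 1 library each. The ratio of resistant to unsorted parental FPKM was 14.0, with about 618 and 41 fragments. CYP27C1, which desaturates retinol in skin, was at 4.08 in the resistant library, 4.35 and 4.10 in the positive libraries, 4.59 and 4.0 in the negative libraries, and 2.07 in the unsorted parental library. The resistant library was thus level with the sorted ones for CYP27C1, and the unsorted parental library alone was low. CYP26A1, the other main enzyme that clears retinoic acid, ranged from 0.255 in the resistant library to 0.664, and CYP26C1 did not exceed 0.0189.

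Enzymes of steroid hormones, sterols and bile acids were scarce. Of 6 steroid hormone enzymes CYP11A1 alone, the first step of steroid synthesis from cholesterol, passed 1, with 1.82 in the resistant library, 1.26 and 1.16 in the positive libraries, 1.09 and 0.974 in the negative libraries, and 0.646 in the unsorted parental library. CYP17A1, CYP19A1 and CYP21A2 did not exceed 0.0860, CYP21A2 overlaps TNXB by 516 bases, and CYP11B1 and CYP11B2 were listed at 0. None of 6 sterol and bile acid enzymes reached 1. Of these, CYP27A1, the mitochondrial sterol hydroxylase, was at 0.906 in the resistant library, 0.285 and 0.387 in the positive libraries, 0.262 and 0.642 in the negative libraries, and 0.0886 in the unsorted parental library. CYP39A1 ranged from 0.306 to 0.743, CYP7B1 from 0 to 0.369, CYP8B1 from 0.0511 to 0.200, CYP46A1 from 0.0114 to 0.169 and CYP7A1, the rate-limiting enzyme of bile acid synthesis, from 0 to 0.0346. CYP20A1, a P450 with no settled role, varied little, at 2.27 in the resistant library, 1.92 and 2.1 in the positive libraries, 1.89 and 2.14 in the negative libraries, and 2.23 in the unsorted parental library.

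**Figure D2:**
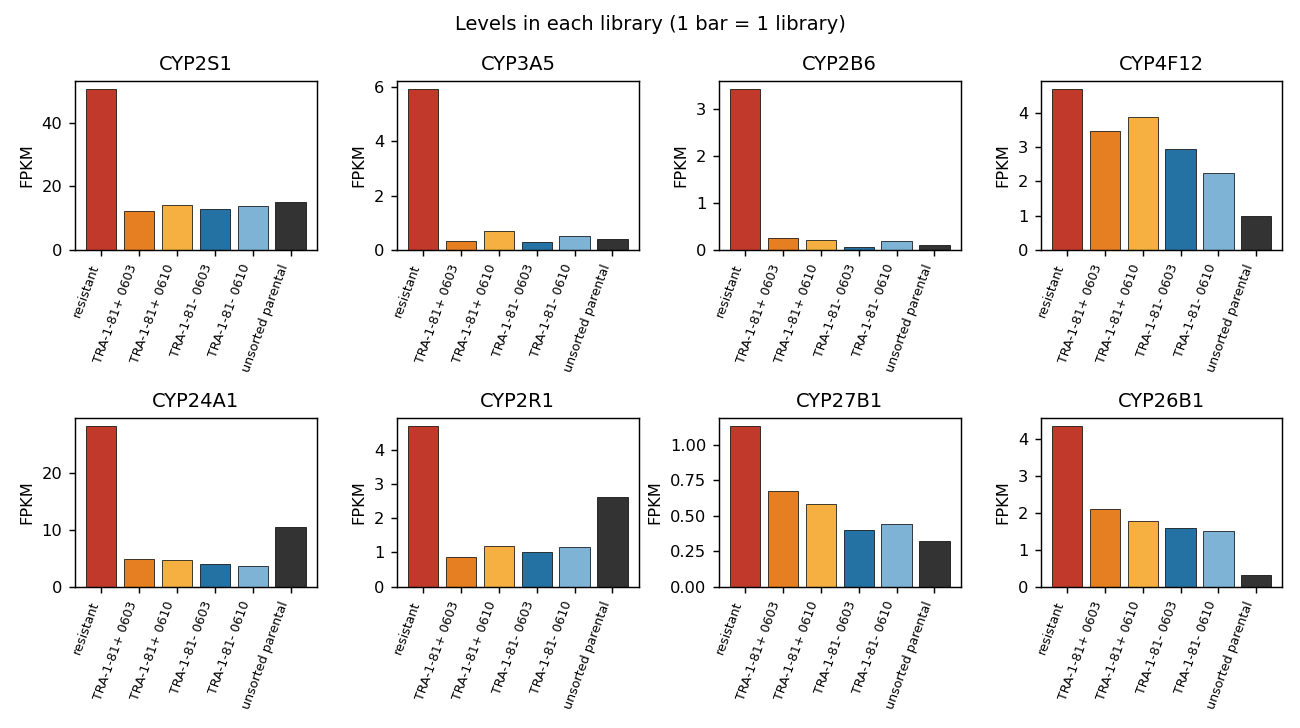
FPKM of 8 P450 genes in each library, with 1 bar per library and a separate vertical axis from 0 for each gene. CYP2S1, CYP3A5 and CYP2B6 are high in the resistant library alone, CYP24A1 and CYP2R1 are also raised in the unsorted parental library, and CYP4F12 and CYP26B1 are lowest in the unsorted parental library.

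How the resistant derivative differed from the parental line was asked first of the unsorted cultures. With a level of 1 FPKM or more required in one of these libraries, 18 P450 genes could be compared as log2(FPKM + 1), a scale on which low genes change less than in FPKM. A ratio of at least 2-fold on that scale was seen for 6 of the 18 in the higher direction (33.3%), against 13.5% of the 12066 genes compared, and for 0 in the lower direction, against 6.9% of all genes. In all, 1629 genes were higher and 832 lower, a split that became 1278 and 1140 with quantile normalisation, while the same 6 P450 genes were called. In order, the log2 ratios were 2.29 for CYP3A5, 2.03 for CYP26B1, 2.0 for CYP2B6, 1.68 for CYP2S1, 1.52 for CYP4F12 and 1.35 for CYP24A1. CYP4F11 lay just under the threshold at 0.98, although its FPKM ratio was 8.01. The median over the 18 genes was 0.73, against 0.09 over all genes compared, and CYP1A1 was the one gene below 0, at -0.19, with CYP20A1 at 0.02 and CYP4V2 at 0.12 close to it. However, 9 of the 18 met the level of 1 in the resistant library alone, 4 of the called genes among them, and such genes could hardly come out lower. CYP2S1 and CYP24A1 were the called genes that were at or above 1 in both libraries. With a pseudocount of 5 in place of 1, the called genes were CYP24A1, CYP2S1 and CYP3A5, where 1174 of the 12066 genes were called. A minimum FPKM of 5 left those same 3 to compare, and all were called, where 1882 of 9426 genes were. CYP3A5 met that minimum through the resistant library alone. With a pseudocount of 0.1, 10 of the 18 were called, where 3103 of the 12066 genes were.

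The sorted cells gave a further view of the parental line. Against the mean of the 4 sorted libraries, 20 P450 genes could be compared, and the resistant library was at least 2-fold higher for 5 of them, where 8.26% of the 12042 genes compared were higher. These were CYP24A1 at 2.47, CYP3A5 at 2.27, CYP2B6 at 1.91, CYP2S1 at 1.85 and CYP2R1 at 1.48, and CYP26B1 lay just under at 0.97. One was at least 2-fold lower, CYP2W1 at -1.15, where 4.94% of all genes were lower. CYP2W1 met the level of 1 through the sorted libraries alone and could hardly come out higher, so nothing is read from that call. In this comparison, 6 of the 20 met the level of 1 through the resistant library alone. The called genes CYP2B6 and CYP3A5 were 2 of them, and such genes could hardly come out lower. Both comparisons rest on the same resistant library and are not independent of each other.

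When the resistant library was set against each of the 5 parental-line libraries in turn, CYP24A1, CYP2B6, CYP2S1 and CYP3A5 were at least 2-fold above all of them. That is 4 of 20 members, where 5.62% of the 12251 genes with an FPKM of 1 in any library met the same rule, and 0 members were 2-fold below all of them, where 2.14% of genes were. CYP2B6 and CYP3A5 reached an FPKM of 1 in the resistant library alone, so they had to lie above the other libraries. At any size, the resistant library lay above all 5 for 13 of the 20 members, against 38.5% of all genes, and below all 5 for CYP4B1 and CYP2W1, against 30.1% of all genes. Of those 13, CYP4F11, CYP27B1, CYP2B6, CYP2J2 and CYP3A5 reached 1 in the resistant library alone and could not come out otherwise, so nothing is read from that count. CYP4B1 and CYP2W1 reached 1 in sorted libraries alone and could not lie above all 5, so nothing is read from them either. CYP26B1 and CYP4F12, called against the unsorted parental library, were thus less than 2-fold above at least 1 sorted library.

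**Figure D3:**
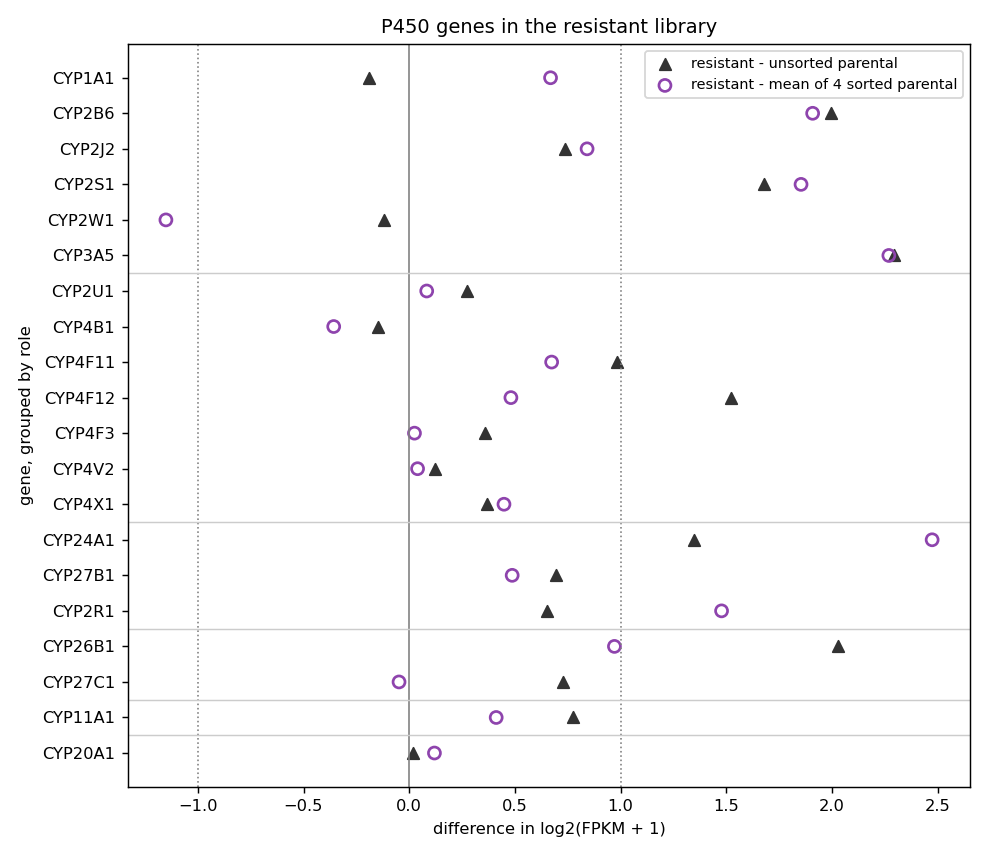
Difference in log2(FPKM + 1) of the resistant library from the unsorted parental library (triangles) and from the mean of the 4 sorted libraries (open circles) for the 20 P450 genes, with dotted lines at a 2-fold difference. CYP3A5, CYP2B6, CYP2S1 and CYP24A1 are past the line on both measures, CYP26B1 and CYP4F12 on the first and CYP2R1 and CYP2W1 on the second.

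The sorted libraries and the unsorted parental library come from the same line, and differ in having passed a flow cytometer. Of 15 P450 genes compared, the mean of the sorted libraries was at least 2-fold higher for CYP26B1 (1.06), CYP4F12 (1.04) and CYP2W1 (1.03), where 5.46% of 11660 genes were higher. All 3 were under an FPKM of 1 in the unsorted parental library and entered the comparison through the sorted libraries alone, so nothing is read from this count. The sorted mean was lower for CYP24A1 (-1.13), where 2.11% of all genes were lower. CYP1A1 at -0.86 and CYP2R1 at -0.82 were also lower without reaching 2-fold. CYP1A1 met the level of 1 through the unsorted parental library alone and could hardly come out higher, so nothing is read from its direction. With quantile normalisation, the P450 genes called were CYP24A1 and CYP1A1, both lower, and the split of all genes was 517 higher and 316 lower, against 637 and 246 without it. Without the positive library 0603 the values of CYP4F12 and CYP26B1 were just under 1, and 2 calls were left, CYP24A1 and CYP2W1. Sorting, culture and sequencing run cannot be told apart here, as the unsorted parental line has 1 library. For CYP26B1 and CYP4F12, part of the distance between the resistant and the unsorted parental library was therefore also present between the sorted and the unsorted cells of the parental line.

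The positive and negative fractions were the one contrast between the study's groups with replicates, and in limma with Benjamini-Hochberg adjustment 0 of 14 P450 genes passed an adjusted p of 0.05, where 0.00867% of all genes, 1 of 11533, did so. At an unadjusted p under 0.05 there were 3 P450 genes (CYP4F3, CYP4F12 and CYP24A1) and 565 genes in all. CYP4F3 had a positive minus negative difference of 0.41 ± 0.09 (SE, n = 2 libraries each, limma adjusted p = 0.589) on the log2(FPKM + 1) scale, with 0.35 within the number 0603 and 0.46 within 0610. CYP4F12 differed by 0.38 ± 0.13 (SE, n = 2 each, limma adjusted p = 0.897), with 0.17 and 0.59 within the numbers, and CYP24A1 by 0.23 ± 0.08 (SE, n = 2 each, limma adjusted p = 0.930), with 0.21 and 0.26. None of these differences passed in this test, which has no term for the numbers. The positive libraries lay without overlap above the negative ones for 6 of the 14 genes, the 3 named together with CYP4B1, CYP26B1 and CYP11A1, where 18.6% of all genes did so. They lay below for CYP4X1, where 12% of all genes did so. CYP4F11, too low for the test, was 0.29 higher in the positive library within 0603 and 0.32 higher within 0610, so that all 3 expressed CYP4F genes had the same sign in both numbers.

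**Figure D4:**
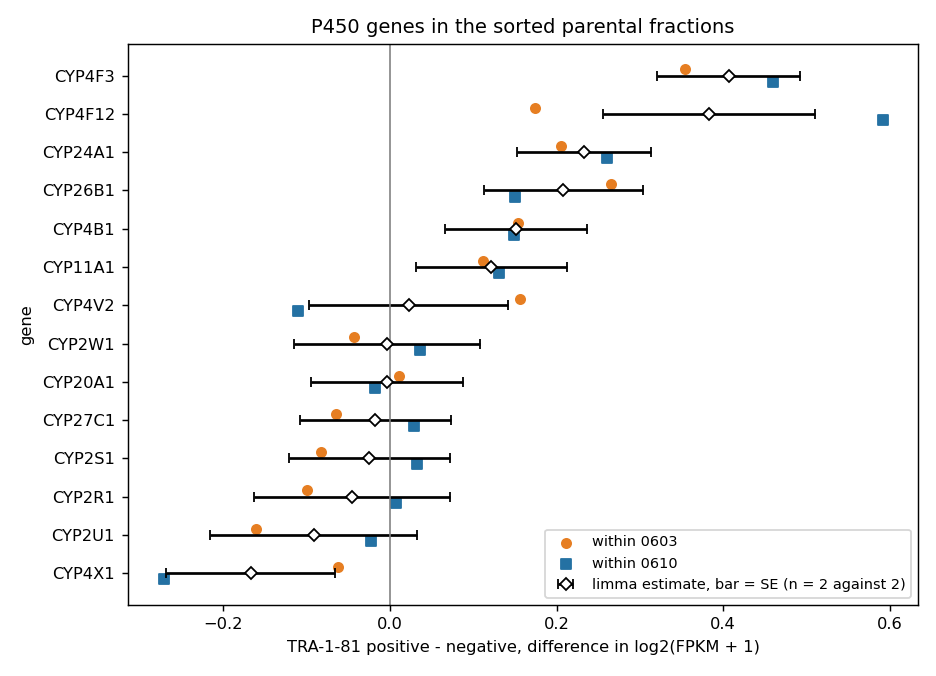
Positive minus negative difference in log2(FPKM + 1) for the 14 tested P450 genes, with the limma estimate and its standard error (diamond and bar, 2 libraries against 2) and the difference within each number (0603 circles, 0610 squares). CYP4F3, CYP4F12 and CYP24A1 have the largest differences and lie right of 0 in both numbers, and none of the 14 passed the adjusted threshold in the test without a term for the numbers.

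The numbers themselves went with wide differences in the sorted libraries. With the fraction as a term, limma found 22.4% of the 11533 genes higher in 0610 than in 0603 and 18.8% lower. Of the 14 P450 genes, CYP2S1 alone passed, being higher in 0610 by 0.15 ± 0.05 (SE, n = 2 libraries each, limma adjusted p = 0.0297), and 0 were lower. The resistant and unsorted parental libraries carry neither number, so this difference is no measure of the spread between them. The call was lost without a mean trend or a fraction term, with quantile normalisation and with no filter on low values.

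The partners and regulators of the P450s were read from lists of their own. Of 10 redox partners, 0 were at least 2-fold higher or lower in the resistant than in the unsorted parental library, against 13.5% and 6.9% of all genes, and their median log2 ratio was 0.47, against 0.09 over all genes. Against the mean of the sorted libraries, their median was 0.04, against 0.05 over all genes, with 6 higher and 4 lower. POR, the common electron donor, was at 40.8 in the resistant library, 32.9 and 32.2 in the positive libraries, 33.5 and 31.2 in the negative libraries, and 28.6 in the unsorted parental library. FDXR, the mitochondrial ferredoxin reductase, was at 13.4 in the resistant library, 19.9 and 17.1 in the positive libraries, 18.4 and 16.9 in the negative libraries, and 6.52 in the unsorted parental library. Of 12 genes of haem synthesis and breakdown, HMOX1, which degrades haem, was the one called, at 1.28, where 13.5% of all genes were called higher. HMOX1 was at 3.39 in the resistant library, 1.33 to 2.01 in the sorted libraries and 0.811 in the unsorted parental library. It therefore met the level of 1 in that comparison through the resistant library alone. Against the mean of the sorted libraries, its difference was 0.72, under 2-fold.

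PXR and CAR are the receptors best known to switch on CYP3A5 and CYP2B6. NR1I2, which encodes PXR, was listed at 0 in the resistant and all 4 sorted libraries and was at 0.0151 in the unsorted parental library. NR1I3, which encodes CAR, was at 4.0 in the resistant library, 2.03 and 1.86 in the positive libraries, 2.17 and 1.58 in the negative libraries, and 1.95 in the unsorted parental library. Among the 8 nuclear receptors compared 0 were called in either direction between the resistant and the unsorted parental library. Of all genes, 13.5% were called higher and 6.9% lower, and with 8 genes nothing is read from this count. NR1I3 was the highest at 0.76 and NR1H3, a sterol receptor, the lowest at -0.73.

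In the AhR pathway, 1 of 8 genes was at least 2-fold higher in the resistant than in the unsorted parental library and 1 lower, close to the 13.5% and 6.9% of all genes. UGT1A6, a conjugating enzyme, was at 55.5 in the resistant library, 6.69 and 6.36 in the positive libraries, 0.663 and 0.618 in the negative libraries, and 0.000288 in the unsorted parental library. It was also the single gene past the limma threshold between the fractions (2.20 ± 0.08, SE, n = 2 libraries each, adjusted p = 0.0295), although UGT1A6 shares most of its exons with the other UGT1A genes and its share of their fragments is uncertain. Against the unsorted parental library UGT1A6 met the level of 1 through the resistant library alone, and between the fractions through the positive libraries alone. It could hardly come out lower in either comparison. NQO1, a quinone reductase, was at 83.3 in the resistant library, 158 and 179 in the positive libraries, 179 and 205 in the negative libraries, and 189 in the unsorted parental library, a log2 ratio of -1.17. TIPARP, an AhR-induced repressor of AhR, had a log2 ratio of 0.91, beside the -0.19 of CYP1A1. Against the mean of the sorted libraries, TIPARP was at 1.08 and CYP1A1 at 0.67, the latter meeting the level of 1 through the resistant library alone. In that comparison 2 of the 8 genes, UGT1A6 and TIPARP, were called higher and 1, NQO1, lower. Of all genes, 8.26% were higher and 4.94% lower there.

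Of 11 genes of retinoic acid supply and response, 4 were higher by at least 2-fold in the resistant than in the unsorted parental library and 0 lower, against 13.5% and 6.9% of all genes. Among them, the dehydrogenase DHRS9 had a log2 ratio of 2.87, STRA6, a retinol importer, one of 1.33 and RDH10, which oxidises retinol, one of 1.17. Against the mean of the sorted libraries, STRA6 was at 2.22, while DHRS9 at 0.70 and RDH10 at 0.56 did not reach 2-fold. For DHRS9, the sorted mean itself exceeded the unsorted parental library by 2.18. At any size, 7 of the 11 genes were higher in the resistant than in the unsorted parental library and 4 were lower. Among the P450s with other symbols and the epoxide hydrolases, EPHX2, the enzyme that hydrolyses the epoxides made from arachidonic acid by CYP2J2, was at 8.78 in the resistant library, 3.52 and 3.07 in the positive libraries, 2.98 and 3.24 in the negative libraries, and 0.883 in the unsorted parental library. It was the one gene called of 3 compared, at 2.38, where 13.5% of all genes were called higher, and it met the level of 1 through the resistant library alone.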

How the data were processed

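RNA of 6 SW1990 libraries was sequenced. The authors deposited 1 table of gene values whose header names no unit; it is read as FPKM, since Cufflinks 2.1.1 is named with TopHat2 2.0.11, CASAVA 1.8.2 and build hg19 in the submitters' processing notes. Of 19312 rows, 235 repeated a symbol at a lower mean and were left out, among them 1 of 56 that match the family. Starts are given 1 above the table's (hg19). Promoters come from RefSeq (GRCh38.p14), where 38 of 54 members, and 17 of the 20 expressed, had an entry.

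Values were analysed as log2(FPKM + 1). Sorted libraries were tested in limma 3.58.1 (R 4.3.3; mean trend, two-sided, Benjamini-Hochberg adjusted over the 11533 genes that reached an FPKM of 1 in 2 or more of the 4). Whether libraries of a fraction are separate cultures is not stated; the p-values cover the spread between these libraries, which may be technical. With 1 library, differences of at least 1 (log2) are counted, with no p. Every member at an FPKM of 1 or more in any library is named with its values, the others with their range (a few listed genes are not reported here), and of other lists up to 2 highest and 2 lowest ratios and any gene past the threshold, with POR, FDXR, VDR, NR1I2, TIPARP and markers added after their values were seen. Members and lists were chosen with earlier results of these data known. The limma steps were tested on simulated data. Alternatives tried were other pseudocounts, filters and scaling, a replicate block and leaving out sorted libraries.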

Additional observations from a re-analysis of the deposited data

How the results depend on the processing

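Between the fractions, 0 P450 genes passed in every alternative run without a replicate block, libraries left out included. With the number as a replicate block, 3 passed (CYP4F3, CYP4F12 and CYP24A1, limma adjusted p = 0.00654, 0.0208 and 0.0251), as did 1484 genes in all. Same-numbered libraries deviated together (correlation 0.654 over 11533 genes, 2 pairs). Nothing says what the numbers mark, so whether these libraries were paired by design is not known. Between the numbers, quantile normalisation gave 2 of 14 P450 genes (0 higher, 2 lower), where 4656 of 11527 genes were called. No fraction term gave 0 (1047 of 11533 genes) and no mean trend 3 (4118 of 11533 genes). CYP2S1 had a limma adjusted p of 0.0641, 0.145 and 0.06 in these runs, and 0.126 with no filter. Leaving out a library could not be fitted there, as no residual degrees of freedom remained. For the resistant against the unsorted parental library, the count was 6 of 18, where 2461 of 12066 genes were called. It was 10 of 18 with a pseudocount of 0.1 (3103 of 12066 genes) and 3 of 18 with 5 (1174 of 12066 genes). With a filter at an FPKM of 5 it was 3 of 3, where 1882 of 9426 genes were called. CYP3A5 passed that filter through the resistant library alone. Against the sorted mean, the count of 6 of 20 (1590 of 12042 genes) was 10 (2209 genes) and 3 (693 genes) with these pseudocounts. With the filter it was 3 of 3 (1230 of 9361 genes), CYP3A5 and CYP24A1 passing through the resistant library alone. It was 6 to 7 when a sorted library was left out (1539 to 1669 genes). For the sorted mean against the unsorted parental library, the count of 4 of 15 (883 of 11660 genes) was 7 (1400 genes) and 0 (353 genes). With the filter it was 1 of 2 (684 of 9032 genes), CYP24A1 passing through the unsorted parental library alone. With quantile normalisation it was 2 of 15 (0 higher, 2 lower, against 3 and 1), where 833 of 11796 genes were called. It was 2 to 4 when a sorted library was left out (849 to 950 genes). The causes were not tested. Quantile normalisation turned the split of all genes between the resistant and unsorted parental libraries to 1278 higher and 1140 lower, against 1629 and 832, and their median to -0.07, against 0.09. The differences of the P450 genes called in these comparisons, and of the 3 named between the fractions, kept their sign in the alternatives run. Depth limits the genes under an FPKM of about 0.1, where values rest on few fragments.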
